A study of Mus musculus with 359 samples.

Results

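The genes described here are 8 transporters of drugs and organic anions: the uptake carriers Slco1a4, Slco1b2 and Slco2b1, the canalicular pumps Abcc2, Abcb1a and Abcg2, and the pumps of the blood side Abcc3 and Abcc4. They were chosen by name, as 8 of the 24421 genes counted in each of 6 tables. RNA was sequenced from the liver and the lung of B6C3F1 mice of both sexes, a hybrid strain widely used in toxicity testing, which had received 4-methylimidazole (4-MEI), a small heterocycle found in caramel colouring. At day 2 the mice had been dosed by gavage with vehicle, 50, 100, 200 or 300 mg/kg-d, and at days 5 and 28 they had been fed 0, 150, 300, 1250 or 2500 ppm. Each tissue, day, sex and dose formed a group of 6 libraries, except the lungs of females fed 2500 ppm for 5 days, with 5. The study is a time and dose response, and each dose was compared with the 0 dose group (called vehicle throughout) of its own tissue, day and sex.

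Hepatocytes take up bile acids, steroid conjugates and drugs from blood through organic anion transporting polypeptides, which the Slco genes encode. They push the same compounds and their glucuronide, sulfate and glutathione conjugates out again through ATP-binding cassette pumps, either across the canalicular membrane into bile or across the sinusoidal membrane back to blood. Ligands of the nuclear receptors PXR and CAR are known to raise several of these genes in mouse liver, Slco1a4 and Abcc3 among them, and several are known to differ between male and female rodents.

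In the annotation GENCODE M21 of the mouse build GRCm38 (mm10), the 8 genes are protein coding. Slco1a4 (chromosome 6, 141805440 to 141856199, minus strand) and Slco1b2 (chromosome 6, 141629518 to 141686646, plus strand) lie in the same cluster, and Abcg2 (58584523 to 58695676, plus strand) lies on the same chromosome. Slco2b1 is on chromosome 7 (99657804 to 99711340, minus strand), Abcc2 on chromosome 19 (43782192 to 43840740, plus strand) and Abcc3 on chromosome 11 (94343295 to 94392997, minus strand). Abcc4 is on chromosome 14 (118482692 to 118706219, minus strand) and Abcb1a on chromosome 5 (8660077 to 8748575, plus strand). Of the 50-base words in the exons of Abcb1a, 17.6% also occur in another gene, most of them in its paralog Abcb1b, so reads could be split between these copies and the value of Abcb1a alone is uncertain. The share was 1.61% for Slco1a4, mostly with Slco1a5, and at most 0.663% for each of the other 6.

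RefSeq start sites (table of build GRCm38.p6) were found for 7 of the 8 genes, in 12 windows. Shown are the 250 bases before the start site for the 5 genes whose vehicle liver level differed between the sexes at both day 5 and day 28: the genes higher in females, Slco1a4 (chr6:141856221-141856470, minus strand), Abcb1a (chr5:8566841-8567090, plus strand) and Abcc4 (chr14:118706220-118706469, minus strand), and the genes higher in males, Abcg2 (chr6:58584283-58584532, plus strand) and Slco1b2 (chr6:141629268-141629517, plus strand). The start site used for Abcb1a lies far upstream of the gene's first exon in GENCODE M21: the stretch shown ends at 8567090, and the gene begins there at 8660077. The stretch is therefore not next to the start of Abcb1a in that annotation. For Abcg2 and Abcc4, which have several start sites, the one farthest upstream is shown. Capitals mark every match to AGGTCA (the half-site of nuclear receptors), GCGTG (the core bound by AHR), TGACNNNGC (the core of the antioxidant response element) or TTCNNNGAA (the core bound by STAT5), on either strand.
Slco1a4: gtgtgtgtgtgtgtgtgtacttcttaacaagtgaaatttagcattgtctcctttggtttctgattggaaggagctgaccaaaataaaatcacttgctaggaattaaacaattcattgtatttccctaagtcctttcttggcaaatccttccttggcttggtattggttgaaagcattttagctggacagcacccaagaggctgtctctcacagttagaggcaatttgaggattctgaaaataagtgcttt
Abcb1a: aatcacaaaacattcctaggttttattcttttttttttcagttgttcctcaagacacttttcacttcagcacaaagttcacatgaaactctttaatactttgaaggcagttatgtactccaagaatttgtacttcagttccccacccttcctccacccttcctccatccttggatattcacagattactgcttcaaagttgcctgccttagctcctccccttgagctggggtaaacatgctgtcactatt
Abcc4: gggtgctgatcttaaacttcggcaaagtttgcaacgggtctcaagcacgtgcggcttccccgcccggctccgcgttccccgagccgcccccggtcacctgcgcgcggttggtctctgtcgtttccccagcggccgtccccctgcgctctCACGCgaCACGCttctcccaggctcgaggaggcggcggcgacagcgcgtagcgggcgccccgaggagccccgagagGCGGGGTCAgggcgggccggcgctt
Abcg2: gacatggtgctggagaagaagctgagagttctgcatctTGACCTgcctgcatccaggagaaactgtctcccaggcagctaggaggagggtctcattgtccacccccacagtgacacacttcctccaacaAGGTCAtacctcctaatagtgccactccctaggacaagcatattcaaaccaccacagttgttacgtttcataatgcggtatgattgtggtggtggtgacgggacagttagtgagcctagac
Slco1b2: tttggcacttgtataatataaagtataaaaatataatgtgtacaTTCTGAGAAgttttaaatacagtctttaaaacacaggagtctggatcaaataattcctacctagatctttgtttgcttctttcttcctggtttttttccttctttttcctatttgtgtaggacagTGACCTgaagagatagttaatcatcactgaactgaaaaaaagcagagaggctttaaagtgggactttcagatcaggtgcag

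Matches were searched from 250 bases before to 50 bases after each start site, and TTCNNNGAA was added after the values of the genes had been seen. Slco1b2 held AGGTCA on the opposite strand 81 bases before its start site and TTCTGAGAA at 206 bases before it. AGGTCA occurred in 16.3% of the 32851 windows of the same length in the table, and TTCNNNGAA in 8.3%. The Abcg2 window held AGGTCA on each strand. The Abcc4 window held GCGTG at 2 positions and TGACNNNGC on the opposite strand, motifs found in 32.4% and 12.4% of all windows, and TTCNNNGAA at 2 bases after the start site, outside the stretch shown. Slco1a4 held none of these motifs, and Abcb1a held TGACNNNGC only at 26 bases after the start site, outside the stretch shown. No window of the 7 genes searched held an inverted repeat of AGGTCA with 1 base between the copies (0.00913% of all windows), which contains AGGTCA on both strands. Abcc3 had no window and was not searched. No 2 of the matches listed overlapped. These matches are letters in a window and no measure of binding.

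Library totals ran from 8457034 to 22527309 counts in liver and from 7253910 to 21473135 in lung. Values below are CPM, the count of a gene scaled to the size of its library, after TMM scaling. Hepatocyte markers summed to 112765 CPM or more in each liver and to 665 CPM or less in each lung. The liver and the lung of replicate 64 (female, 200 mg/kg-d, day 2) stood apart: in liver Cyp2b10, the classic CAR target, was at 2589 CPM against 97.6 to 257 in the other 5 livers of the group, and in lung Nqo1, an NRF2 target, was at 22.2 CPM against 8.08 to 10.5. The lung of replicate 12 (female, vehicle, day 2) held 257 CPM of albumin (Alb) against at most 10.1 in the other lungs of that day. Called dose differences that rest on these libraries are given with and without them. The correlations between genes include the liver of replicate 64. At day 28 the titles and the characteristics disagreed on the dose of 96 libraries and on the sex of 48 of these. Titles were used, and Y-linked genes matched the sex in the title in 359 of 359 libraries. This match checks sex and not dose, so the day 28 doses rest on the titles, and the dose results of that day depend on them. In bulk tissue, fewer cells of a type and less RNA per cell cannot be told apart.

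In vehicle livers Slco1b2, the carrier of unconjugated bile acids, bilirubin and statins, stood far above the other 7 genes per length of exon. Its median lay between 219 and 372 CPM per kb over the 3 days and both sexes, and in no vehicle group did its lowest library reach down to the highest library of the next gene. Abcc3 and Abcc2 followed, with group medians of 58.7 to 72.8 and 35.1 to 64.6 CPM per kb, and their libraries overlapped in 5 of the 6 vehicle groups, day 2 females being the exception. Slco2b1 came next, at 23.9 to 34.3 CPM per kb, and overlapped with Abcc2 in females at day 2 and in both sexes at day 5. Abcg2 followed in males, at 14 to 16.8 CPM per kb, and Slco1a4 in females, at 21.5 to 22.6, where its libraries overlapped with those of Slco2b1 at days 5 and 28. Abcb1a and Abcc4 were the lowest of the 8 in liver, with medians of 0.444 to 2.75 and 0.295 to 0.822 CPM per kb, and overlapped with each other in males at day 5.

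**Figure D1:**
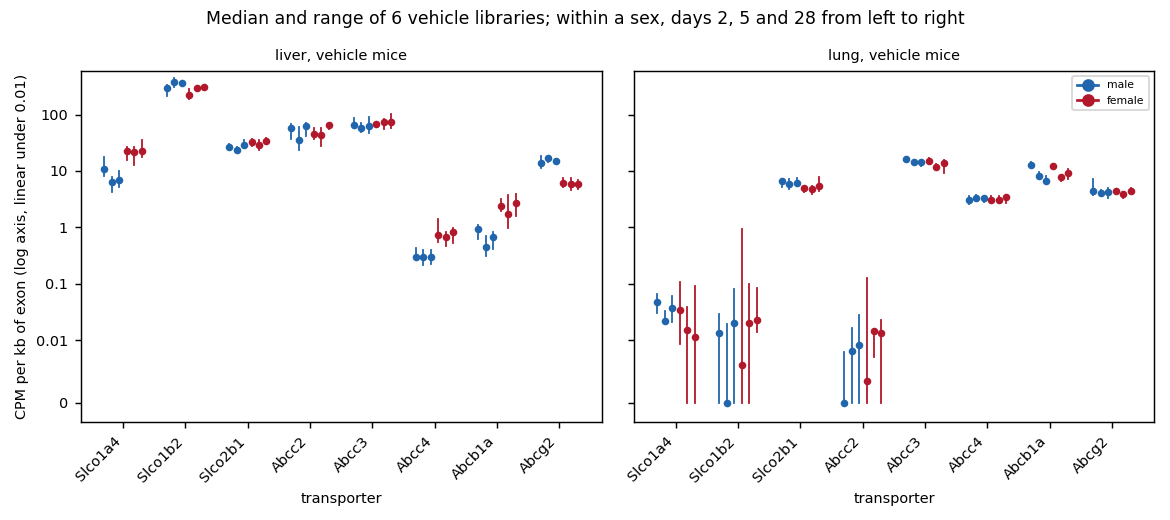
Level of each transporter in vehicle mice, in CPM per kb of exon on a log axis that is linear under 0.01, with liver on the left and lung on the right. Points are medians and lines the range of 6 libraries, with males in blue and females in red and days 2, 5 and 28 from left to right within a sex. Slco1b2 is highest in liver, and Slco1a4, Slco1b2 and Abcc2 lie near 0 in lung. Liver and lung were scaled apart, so levels in the left and right panels are not on a common scale.

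In vehicle lungs the order was another one. Abcc3 was highest, at 11.8 to 16.1 CPM per kb, followed by Abcb1a at 6.59 to 12.7, Slco2b1 at 4.76 to 6.66, Abcg2 at 3.84 to 4.45 and Abcc4 at 3.02 to 3.51. Neighbours in this order overlapped in part of the groups: Abcb1a and Slco2b1 at day 28 in both sexes and at day 5 in males, Slco2b1 and Abcg2 at day 2 in both sexes and in females at days 5 and 28, Abcg2 and Abcc4 in females at day 5 and males at day 28, and Abcc3 and Abcb1a in females at day 28. Slco1a4, Slco1b2 and Abcc2 had group medians of at most 0.0471 CPM per kb. Slco1a4 had at least 1 count in 56 of 60 lungs at day 2, 52 of 59 at day 5 and 57 of 60 at day 28, with at most 13 counts in a library. Slco1b2 had no count in 32 of 60, 32 of 59 and 17 of 60 lungs. A count of 0 allows up to 3 counts in a library, for counting error only, so these genes are described in lung as near the limit of detection at this depth. The highest lung library of Slco1b2 and of Abcc2 at day 2 was replicate 12, with 80 and 19 counts, where no other lung of that day had more than 3 counts of either.

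Between the tissues of vehicle mice, tests were made in joint fits of liver and lung for each day. The 5 genes that passed the filter on low counts in both tissues gave 30 comparisons over day and sex, of which 29 passed an adjusted p of 0.05 (edgeR's quasi-likelihood test, Benjamini-Hochberg within a contrast), where 86.7% of all genes did over the 6 contrasts. Across all genes tested the median liver minus lung difference was -0.27 to -0.17 log2, and the values below are to be read relative to it. Slco2b1 was 9.85-fold to 16.3-fold, Abcc3 10.3-fold to 15.4-fold and Abcg2 3.2-fold to 9.95-fold higher in liver. Abcc4 was lower in liver, with log2 differences of -2.17 to -0.62, and Abcb1a likewise, with -2.83 to -0.40. The comparison that did not pass was Abcb1a in females at day 28 (-0.40, SE 0.22, adjusted p 0.0733 by edgeR). Slco1a4, Slco1b2 and Abcc2 passed the joint filter only through liver, and no fold is given for them. The levels above were scaled within each tissue and day, apart from the joint fits, so liver and lung levels are not on a common scale. Slco2b1 in males at day 2, for example, had medians of 26.7 and 6.66 CPM per kb in liver and lung, beside a 9.85-fold difference in the joint fit.

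The sexes differed in the vehicle livers of 7 of the 8 genes on at least 1 day, and the largest of these differences were those of Abcb1a, Slco1a4, Abcc4 and Abcg2. Of the 8 genes, 5 passed the test between female and male vehicle livers at day 2, 7 at day 5 and 5 at day 28, where 13.7%, 18.2% and 22.2% of all genes did. Females were higher in 12 of these 17 calls and males in 5, and over the 3 days 9.84% of all gene tests were called higher and 8.23% lower in females.

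Abcb1a, which encodes a P-glycoprotein, ranged from 3.39 to 6.16 CPM (median 5.06) in male and from 10.7 to 17.5 CPM (median 12.9) in female vehicle livers at day 2. At day 5 it ranged from 1.69 to 3.89 CPM (median 2.44) in males and from 5.43 to 20.7 CPM (median 9.42) in females, and at day 28 from 2.29 to 4.59 (median 3.73) and from 8.61 to 21 (median 15.1). All female livers lay above all male livers on each of the 3 days. The female level was 2.7-fold higher at day 2 (95% interval 2.08 to 3.49, adjusted p 5.82e-08 by edgeR), 4.41-fold at day 5 (2.79 to 6.96, adjusted p 1.74e-06) and 4.24-fold at day 28 (2.87 to 6.27, adjusted p 1.15e-07).

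Slco1a4, the carrier of bile acids, cardiac glycosides and other amphipathic compounds, ranged in males from 51.9 to 113.1 CPM (median 70.6) at day 2, from 27.2 to 50.9 (median 40.8) at day 5 and from 33.7 to 62.9 (median 45.2) at day 28. In females it ranged from 100.1 to 169.8 CPM (median 143.3), from 81.5 to 167 (median 137.7) and from 113.6 to 231 (median 145). At day 2 the lowest female liver lay below the highest male liver, and at days 5 and 28 the sexes did not overlap. Females were 1.85-fold higher at day 2 (95% interval 1.35 to 2.55, adjusted p 0.00695 by edgeR), 3.45-fold at day 5 (2.71 to 4.39, adjusted p 6.69e-12) and 3.45-fold at day 28 (2.59 to 4.59, adjusted p 2.04e-09).

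Abcc4, the pump of cyclic nucleotides and of bile acids toward blood, was low in both sexes. It ranged in males from 1.74 to 2.79, 1.39 to 2.49 and 1.42 to 2.49 CPM at days 2, 5 and 28, and in females from 3.45 to 9.15, 2.98 to 5.23 and 3.33 to 6.18 CPM. The sexes did not overlap on any day, and the female level was 2.46-fold, 2.12-fold and 2.65-fold higher, with adjusted p of 0.000596, 4.9e-05 and 8.43e-06 by edgeR.

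Abcg2, the pump of sulfate conjugates and of many drugs into bile, stood the other way around. It ranged in males from 93.2 to 148.99 CPM (median 113.8), 115.9 to 139.9 (median 137.1) and 110.5 to 128.6 (median 122.7) at days 2, 5 and 28, and in females from 41.9 to 60.7 (median 49.3), 37.6 to 59.8 (median 47.7) and 39 to 55.9 (median 47). Each male liver lay above each female liver on each day. The female to male fold was 0.435 at day 2, 0.361 at day 5 and 0.384 at day 28, with adjusted p of 2.89e-12, 3.37e-21 and 2.58e-20 by edgeR.

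Smaller differences were called for 3 more genes, with overlapping libraries. Slco1b2 was lower in females at day 5 (fold 0.789, adjusted p 0.000393 by edgeR) and at day 28 (fold 0.875, adjusted p 0.0479). Slco2b1, which carries sulfated steroids, was higher in females at day 2 (1.2-fold, adjusted p 0.00969) and day 5 (1.19-fold, adjusted p 0.0462), and Abcc3 at day 5 (1.2-fold, adjusted p 0.0322). Abcc2, the pump of bilirubin glucuronide and other conjugates into bile, passed on none of the 3 days (by edgeR, unadjusted p 0.0465 at day 2 with fold 0.847). DESeq2 gave the same number of calls, 17. Of the 17 calls by edgeR, 3 ended under at least 1 other setting. Out of 5 other settings, Slco2b1 at day 5 was lost in 3, Slco1b2 at day 28 in 2 and Abcc3 at day 5 in 1. The highest adjusted p over these settings was 0.111 for Slco1b2 at day 28, 0.112 for Slco2b1 at day 5 and 0.141 for Abcc3 at day 5, by edgeR on the vehicle groups alone.

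The sexes were also compared at each of the 15 dose groups of the 3 days, vehicle included, by the female over male ratio of the group medians. Abcb1a was higher in all female livers than in all male livers in 15 of 15 dose groups, with ratios of 2.55 to 4.34 (median 3.87). Abcg2 was lower in all female livers in 15 of 15, with ratios of 0.341 to 0.492 (median 0.412). Slco1a4 separated in 13 of 15 dose groups (1.77 to 3.37, median 2.76) and Abcc4 in 10 of 15 (1.49 to 3.18, median 2.23), while Slco1b2 was higher in all male livers in 6 of 15. Of all genes tested in liver, 6.83%, 6.99% and 7.57% did not overlap between the sexes in vehicle mice at days 2, 5 and 28. In lung the same ratio of Abcb1a was 0.88 to 1.66 and that of Abcg2 0.797 to 1.18, with overlap in all 15 dose groups. None of the 5 genes tested in lung passed the test between vehicle sexes by edgeR or DESeq2, where 0.164%, 0.293% and 0.364% of all genes did by edgeR, and 4 of the 15 comparisons had an unadjusted p under 0.05. The share of all genes under that unadjusted p was not taken.

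**Figure D2:**
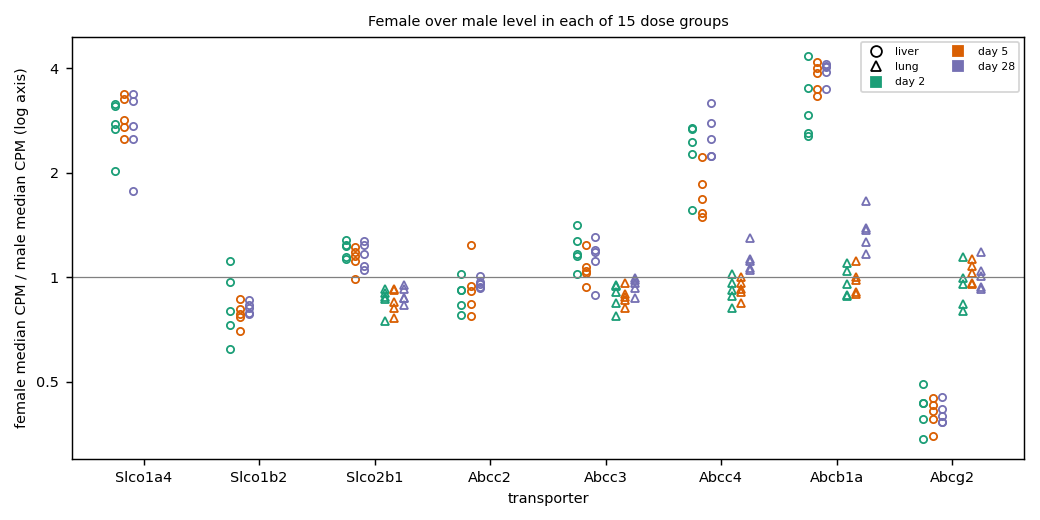
Female median CPM divided by male median CPM in each of the 15 dose groups (log axis), with circles for liver, triangles for lung and colours for days. In liver Abcb1a lies between 2.55 and 4.34 and Abcg2 between 0.341 and 0.492, whereas their lung ratios lie between 0.88 and 1.66 and between 0.797 and 1.18. The 3 genes near 0 in lung are shown for liver only.

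In liver, 8 of the 192 comparisons of a dose with its vehicle group passed an adjusted p of 0.05 over all genes, 5 higher and 3 lower, where 1.54% of all gene tests were called higher and 1.3% lower, and 39 had an unadjusted p under 0.05. The share of all genes under an unadjusted p of 0.05 was not taken. Counts at that level, here and elsewhere, are therefore not read as an excess among the transporters. At the highest dose the calls were Slco1b2 and Slco2b1 in females at day 2, and Slco1a4, Abcc3 and Abcg2 in males at day 5. The 4 dose contrasts of a sex and day share their vehicle libraries. The plot of intervals at the highest dose shows all 8 genes side by side.

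**Figure D3:**
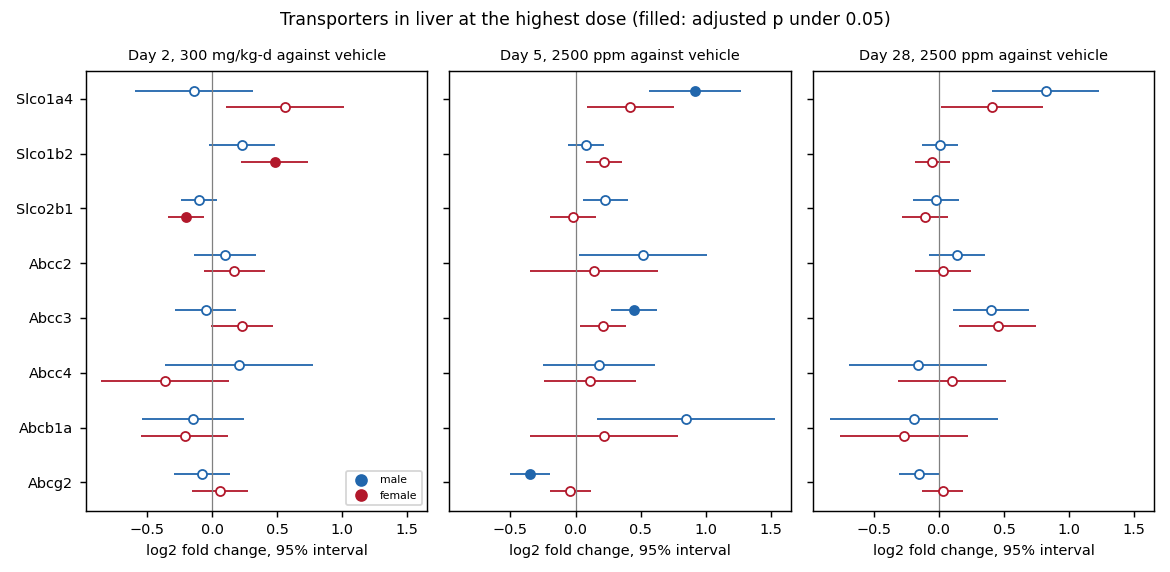
Log2 fold change of the highest dose against vehicle in liver with its 95% interval (x axis) for each transporter, males in blue and females in red, and 1 panel for each day. Filled points passed an adjusted p of 0.05. The largest called value is that of Slco1a4 in males at day 5, 0.92 log2, and no point is filled at day 28.

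Slco1a4 had positive fold changes in 18 of its 24 liver comparisons, the same number as Slco1b2, Abcc3 and Abcc4, and was called higher in 3. In females at day 2 it ranged from 100.1 to 169.8 CPM in vehicle livers and from 163 to 810.1 CPM (median 209) at 200 mg/kg-d. The groups overlapped at their edges, and replicate 64 held the highest value, with the next liver at 267 CPM. The difference was 1.11 log2 (SE 0.23, adjusted p 0.00163 by edgeR, a 2.16-fold level with a 95% interval of 1.57 to 2.97), with 6 of 6 livers above the vehicle mean, and 16.8% of all genes passed in this contrast. Without replicate 64 it was 0.52 (SE 0.17, adjusted p 0.0608), and the call was lost, as it was in a fit of the 2 groups alone (adjusted p 0.184). At 300 mg/kg-d the livers ranged from 133.2 to 276 CPM (median 212), 0.56 log2 above vehicle (SE 0.23, adjusted p 0.0625). A trend over the 5 dose ranks passed in females at day 2, at 0.21 log2 per rank (SE 0.05, adjusted p 0.00148), where 37.5% of all genes passed, and at 0.15 without replicate 64 (adjusted p 0.0013).

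In males Slco1a4 did not pass at any dose of day 2, where the fold changes ran from -0.60 to -0.14 log2. At day 5 it was at 27.2 to 50.9 CPM in vehicle males and at 62.8 to 92 CPM (median 69.9) at 2500 ppm. All 6 treated livers lay above all 6 vehicle livers. The rise was 0.92 log2 (SE 0.18, adjusted p 0.00369 by edgeR), a 1.89-fold level with a 95% interval of 1.49 to 2.4. It was part of 3 calls among the 8 genes in a contrast in which 0.405% of all genes passed and 0.88% did not overlap. The intermediate doses gave 0.44, 0.18 and 0.51 log2 at 150, 300 and 1250 ppm (adjusted p 0.999, 0.933 and 0.42), and the trend was 0.19 per rank (SE 0.04, adjusted p 0.00821), where 0.639% of all genes passed.

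At day 28 vehicle males ranged from 33.7 to 62.9 CPM of Slco1a4 and males fed 150 ppm from 44.8 to 130.1 (median 101.8). The lowest treated liver lay inside the vehicle range and the other 5 lay above all vehicle livers. This difference, at the lowest dose, was called (1.07 log2, SE 0.21, adjusted p 0.0118 by edgeR), where 0.108% of all genes passed, but not in a fit of the 2 groups alone (adjusted p 0.278). At 300, 1250 and 2500 ppm the medians were 59.8, 77.7 and 79.2 CPM and the differences 0.50, 0.82 and 0.82 log2 (adjusted p 0.442, 0.0644 and 0.144), so the median was highest at the lowest dose. The trend over dose ranks was not called in males at day 28, where 0.132% of all genes passed. Females fed 2500 ppm had medians of 175 CPM at day 5 and 198 CPM at day 28 against 137.7 and 145.2 in vehicle, 0.42 and 0.41 log2 higher (adjusted p 0.738 and 0.358), with 6 of 6 livers above the vehicle mean on both days.

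Slco1b2 was called higher in 1 of 24 liver comparisons. In females at day 2 the vehicle livers ranged from 928 to 1411 CPM (median 1079) and the livers at 300 mg/kg-d from 1411 to 1769 (median 1533). The highest vehicle liver and the lowest treated liver both round to 1411 CPM and did not overlap. The rise was 0.48 log2 (SE 0.13, adjusted p 0.00488 by edgeR), a 1.4-fold level with a 95% interval of 1.16 to 1.67, and the trend was 0.10 per rank (SE 0.03, adjusted p 0.00681). In this contrast 30% of all genes passed and 14.7% did not overlap, so 2 calls among 8 genes are near the background. In the fed mice the highest-dose values of Slco1b2 lay between -0.05 and 0.22 log2, and none passed.

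Slco2b1 moved the other way in the same females. It ranged from 167 to 219 CPM (median 195) in vehicle livers and from 156.3 to 179 (median 168) at 300 mg/kg-d. The groups overlapped, and 0 of 6 treated livers lay above the vehicle mean. The difference was -0.20 log2 (SE 0.07, adjusted p 0.0299 by edgeR), a fold of 0.868 with a 95% interval of 0.785 to 0.96, and the trend was -0.06 per rank (SE 0.02, adjusted p 0.00661). With no filter on low counts the adjusted p at 300 mg/kg-d was 0.058. In males at day 5 Slco2b1 was at 138.1 to 158.2 CPM in vehicle livers and at 158.7 to 181 at 2500 ppm, without overlap, but the difference of 0.23 log2 did not pass (SE 0.09, adjusted p 0.384).

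**Figure D4:**
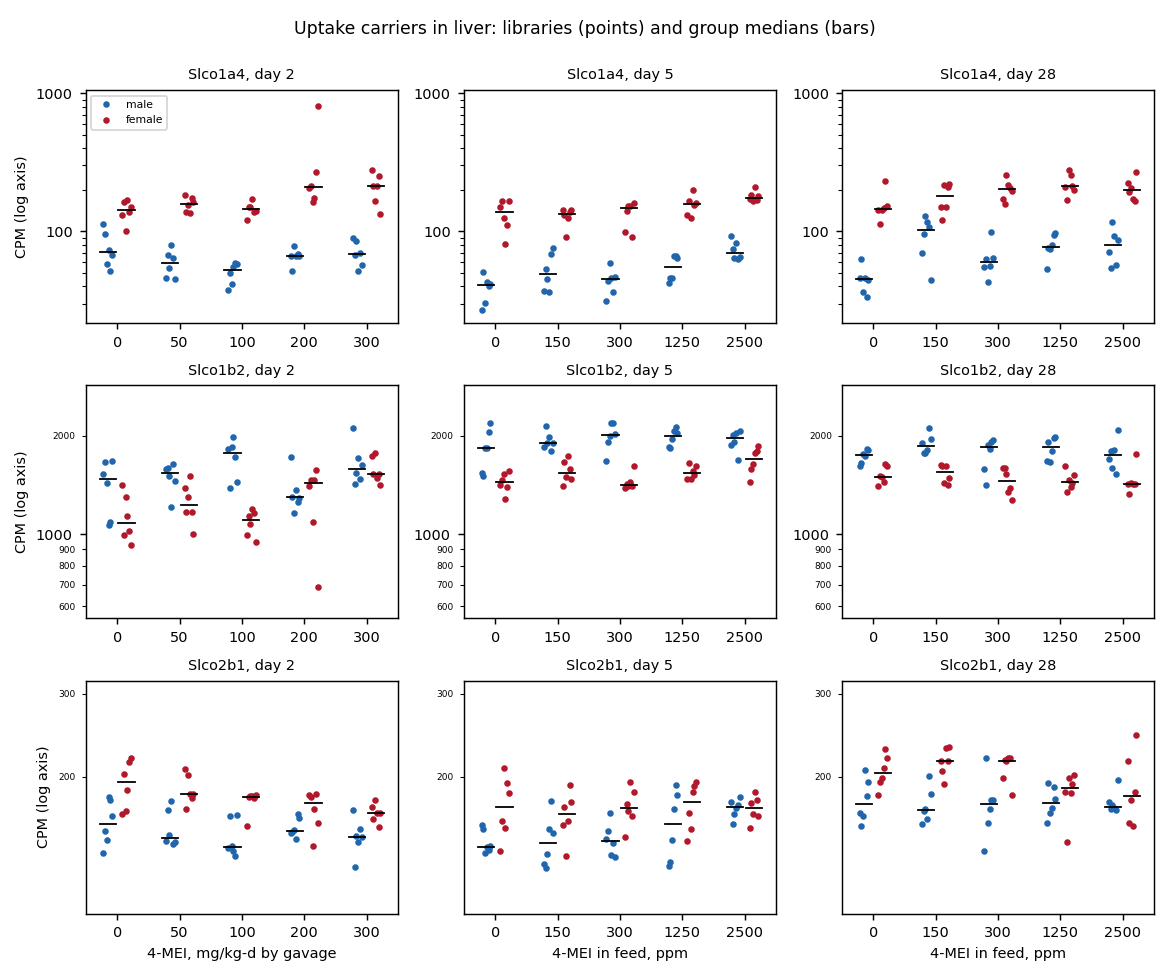
CPM of the 3 uptake carriers in each liver (points) and the group medians (bars) on log axes, by dose on the x axis, with days in columns, males in blue and females in red. Slco1a4 of males lies at 62.8 to 92 CPM at 2500 ppm on day 5, above the vehicle males, and replicate 64 is the single female point at 810.1 CPM on day 2.

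At the same dose and day, marker genes of several liver cell types also differed in females. Of the 8 hepatocyte markers 5 were higher and 1 lower at 300 mg/kg-d on day 2, where 30% of all genes passed, and their sum was 200456 to 218035 CPM against 156781 to 214060 in vehicle. Of the 5 sinusoidal endothelial markers 3 were higher (summed 218 to 263 CPM against 170.0 to 215), of the 5 cholangiocyte markers 2 were lower (26.2 to 34.4 against 36.9 to 45.3) and of the 6 Kupffer cell markers 2 were lower (149.4 to 286 against 189 to 283). Of the 5 stellate cell markers 1 was higher and 1 lower. Their part in the values of Slco1b2 and Slco2b1 was not tested. At day 5 none of the markers of these 5 cell types passed at 2500 ppm in either sex by edgeR, where Slco1a4, Abcc3 and Abcg2 were called in males.

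Among the canalicular pumps Abcc2 had no called dose difference in liver. Its highest-dose fold changes were positive in all 6 combinations of day and sex, from 0.03 to 0.52 log2. The largest, in males at day 5, came with vehicle livers at 199 to 509 CPM (median 299.6) and treated livers at 315 to 556 (median 498), and it did not pass (0.52 log2, adjusted p 0.554 by edgeR). Over the 30 liver groups its median coefficient of variation was 16.3%, against 9.29% for Slco1b2.

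Abcb1a also had no called dose difference in liver. In males at day 5 it was at 1.69 to 3.89 CPM in vehicle livers and at 2.89 to 7.68 CPM at 2500 ppm, with overlap and 6 of 6 treated livers above the vehicle mean. The difference of 0.85 log2 had a wide error (SE 0.35, adjusted p 0.43 by edgeR). The other 5 highest-dose values lay between -0.27 and 0.22 log2. With a median coefficient of variation of 31.2%, Abcb1a was the most variable of the 8 genes within liver groups.

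Abcg2 was called lower in 1 of 24 liver comparisons. In males at day 5 it ranged from 115.9 to 139.9 CPM (median 137.1) in vehicle livers and from 94.5 to 117.3 (median 101.9) at 2500 ppm. The groups overlapped by their edges, at 115.9 and 117.3 CPM. The fall was -0.35 log2 (SE 0.08, adjusted p 0.0309 by edgeR), a fold of 0.783 with a 95% interval of 0.699 to 0.876, with 6 of 6 treated livers below the vehicle mean. Fitted on the 2 groups alone, or with no filter on low counts, its adjusted p was 0.095 and 0.0854. In females fed 2500 ppm Abcg2 was at -0.04 log2 at day 5 and 0.03 at day 28, and in males at day 28 at -0.15.

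Abcc3, the pump of glucuronides toward blood, was called once in each direction. In males at day 2 it ranged from 364 to 504 CPM (median 378) in vehicle livers and from 267 to 346 (median 284) at 100 mg/kg-d. All treated livers lay below all vehicle livers. The fall was -0.47 log2 (SE 0.12, adjusted p 0.0182 by edgeR), a fold of 0.723 with a 95% interval of 0.613 to 0.853, where 4.7% of all genes passed and 2.36% did not overlap. At 200 and 300 mg/kg-d the difference was -0.05 log2 at each dose, and in these males none of the 8 genes passed at 300 mg/kg-d by edgeR, where 15.1% of all genes did.

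In males at day 5 Abcc3 was at 279.7 to 405 CPM (median 334) in vehicle livers and at 422 to 503 (median 461) at 2500 ppm. The groups did not overlap. The rise was 0.45 log2 (SE 0.09, adjusted p 0.00481 by edgeR), a 1.37-fold level with a 95% interval of 1.22 to 1.54, and the trend was 0.10 per rank (SE 0.02, adjusted p 0.00389). Fitted on the 2 groups alone, the rise had an adjusted p of 0.0584. At day 28 females were at 331 to 585 CPM (median 415) in vehicle and at 542 to 677 (median 587) at 2500 ppm, a difference of the same size (0.45 log2, SE 0.15) that did not pass (adjusted p 0.111). The trend in these females did, at 0.11 per rank (SE 0.03, adjusted p 0.0426), where 3.84% of all genes passed, and it was lost without replicate 176, a vehicle library, at 0.10 (adjusted p 0.0968), and with no filter on low counts (adjusted p 0.062). In females at this dose and day 1 of 8 hepatocyte and 1 of 5 stellate cell markers were higher. The summed stellate cell markers were at 187 to 251 CPM in vehicle and 252 to 317 CPM in treated livers, the summed hepatocyte markers at 146604 to 210369 and 183226 to 217026 CPM, and their part in the trend was not tested.

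In males at day 28 Abcc3 was at 272 to 509 CPM in vehicle and 419 to 589 at 2500 ppm (0.40 log2, SE 0.15, adjusted p 0.416). Abcc4 had no liver comparison with an unadjusted p under 0.05. Its highest-dose values ran from -0.36 to 0.21 log2 on levels of 0.959 to 6.8 CPM, with a median coefficient of variation of 24.4%.

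**Figure D5:**
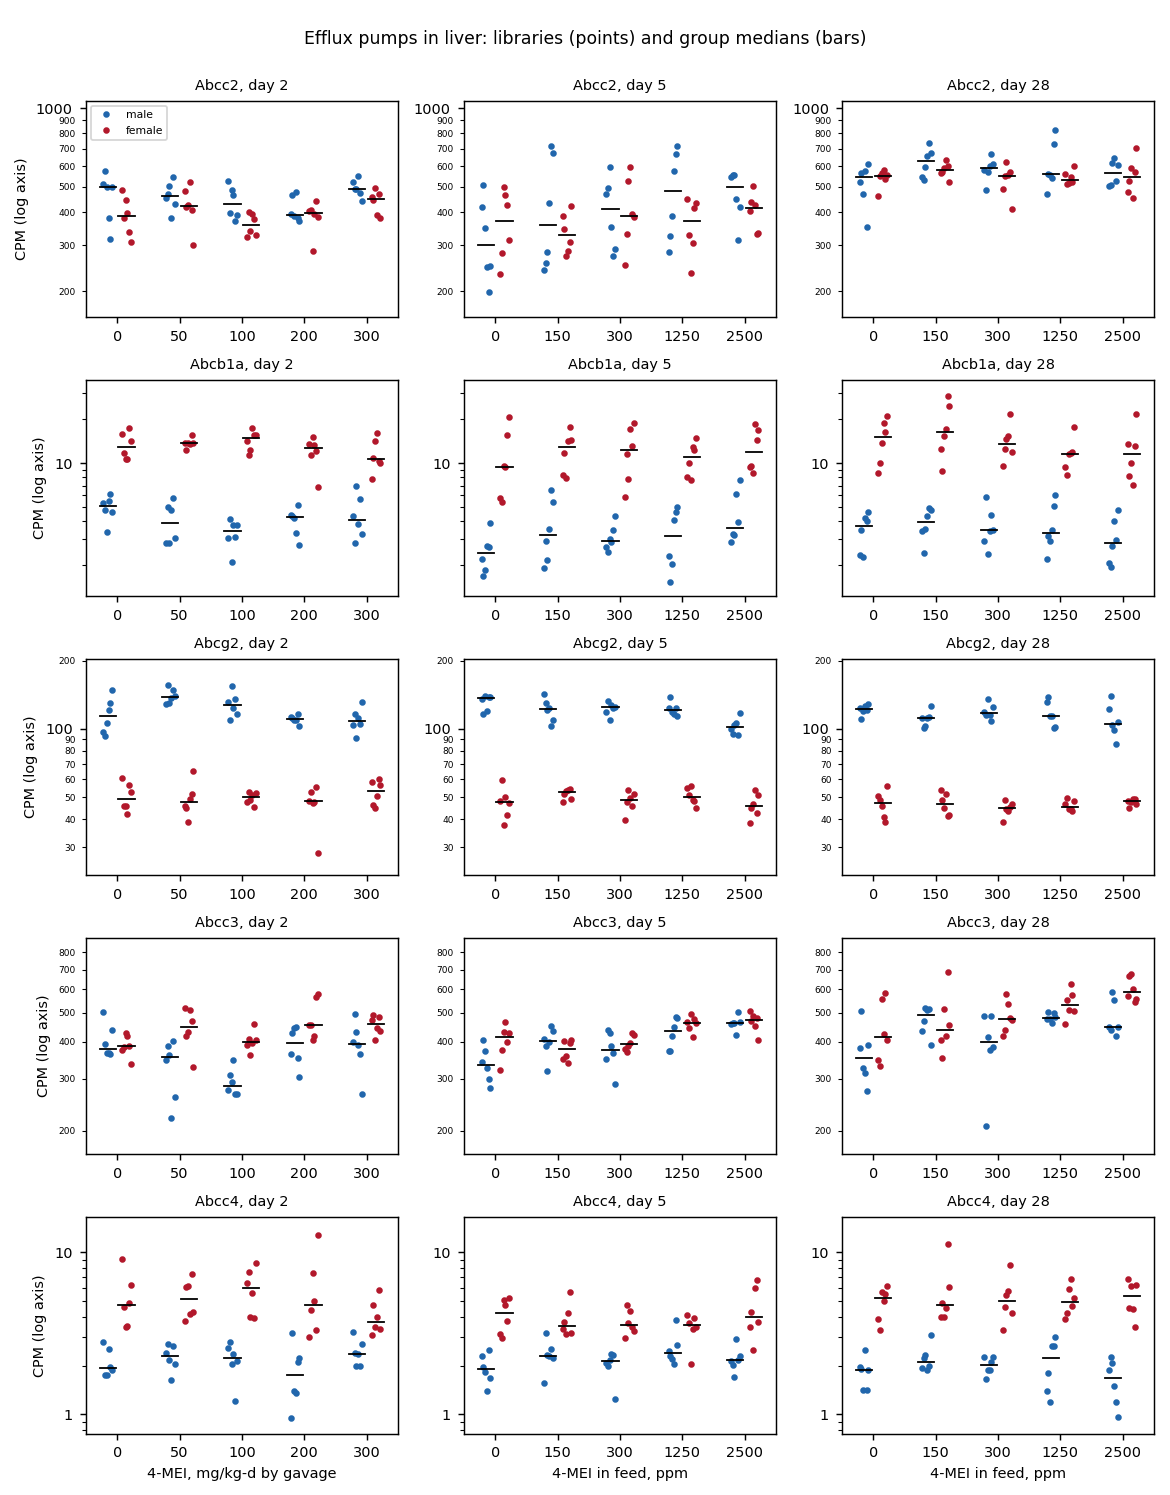
CPM of the 5 efflux pumps in each liver (points) and the group medians (bars) on log axes, by dose on the x axis, with days in columns, males in blue and females in red. Abcc3 of males lies at 422 to 503 CPM at 2500 ppm on day 5 against 279.7 to 405 in vehicle, and the sexes are apart for Abcb1a and Abcg2 at each dose.

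By edgeR and by DESeq2 none of the 8 genes had a highest-dose effect in liver that differed between the sexes, with 3 of 24 comparisons at an unadjusted p under 0.05 by edgeR. Of all genes, 0.00792%, 0% and 0.0387% differed at days 2, 5 and 28. The 3 were Slco1a4 at day 2 (female minus male 0.69 log2, SE 0.33, adjusted p 1) and at day 5 (-0.50, SE 0.24, adjusted p 1), and Abcg2 at day 5 (0.32, SE 0.12, adjusted p 1). So the calls of Slco1a4, Abcc3 and Abcg2 in males at day 5 are not shown to differ from the female values. The effect of 2500 ppm at day 28 did not pass a test against that at day 5 for any gene of the 8 in liver, by edgeR or DESeq2, where 0% of all genes in males and 0.0914% in females differed. At 2500 ppm none of the 8 genes passed in females at day 5, nor in males or females at day 28 by edgeR, where 0.0545%, 0.0775% and 1.16% of all genes did, while DESeq2 called Slco1a4 in males at day 28.

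In lung, where 5 of the 8 genes could be tested, 1 of 120 dose comparisons passed by edgeR, beside 0.611% of all gene tests. An unadjusted p under 0.05 was seen in 20, for which no share of all genes was taken. Slco2b1 in females at day 2 was at 25 to 31.5 CPM (median 29.7) in vehicle and at 31.8 to 60.5 (median 33.7) at 200 mg/kg-d. The groups did not overlap, and replicate 64 held the highest value, the next being 38.2 CPM. The difference was 0.39 log2 (SE 0.10, adjusted p 0.0174 by edgeR) and 0.21 without replicate 64 (adjusted p 0.272), where 5.41% of all genes passed with all libraries and 2.47% did not overlap.

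Abcc3 in lung had positive fold changes in 20 of 24 comparisons and an unadjusted p under 0.05 in 11, and none passed over all genes. Abcb1a in lung was positive in 19 of 24. The dose contrasts of a sex and day share their vehicle libraries, and the share of all genes under that unadjusted p was not taken. These counts are therefore not read as an effect on Abcc3. The range of Abcc3 was small, -0.09 to 0.26 log2. The largest was in females at day 5 fed 1250 ppm, at 74.4 to 88.1 CPM (median 82.6) against 61.4 to 75.8 (median 67.3) in vehicle, with overlap at the edges (SE 0.07, adjusted p 0.138 by edgeR). At the highest dose its 6 values lay between 0.11 and 0.24 log2, and those of Abcb1a between 0.06 and 0.32. Abcb1a in lung of males at day 5 was at 38.8 to 51.7 CPM (median 43.9) in vehicle and at 48.2 to 60.5 (median 55.9) at 2500 ppm, with overlap. Its trend was called, at 0.11 log2 per rank (SE 0.03, adjusted p 0.0468), where 1.28% of all genes passed, but not without 1 lung of a female fed 2500 ppm, which enters through the shared estimate of the spread (adjusted p 0.0506), with no filter on low counts (adjusted p 0.0626) or with weights proportional to dose (adjusted p 0.0955).

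For the 5 genes tested in both tissues, the highest-dose effects of liver and lung passed a test of their difference in 0 of 30 comparisons by edgeR and in 0 by DESeq2, and 6 had an unadjusted p under 0.05 by edgeR. Of all genes, 8.26% passed the adjusted threshold in males and 5.91% in females at day 2, 0.0062% in each sex at day 5, and 0.0805% in males and 0.328% in females at day 28. Their share under the unadjusted p was not taken. The smallest unadjusted p was that of Abcc3 in males at day 5 (liver minus lung 0.38 log2, SE 0.12, adjusted p 0.356 by edgeR). No such test is given for Slco1a4, Slco1b2 and Abcc2, which are near 0 in lung. In the vehicle lung of replicate 12 Slco1b2 was at 4.52 CPM and Abcc2 at 1.07 CPM, beside the 257 CPM of Alb. The ratio of Alb to Slco1b2 was 56.9 there and 88.7 to 137.4 in vehicle livers of the same sex and day, and the ratio of Alb to Abcc2 was 239.7 there and 258 to 414 in those livers. The ratio of Alb to Slco1a4 was 379.5 there and 657 to 1555 in those livers. Each of these ratios lay below its range in liver, and the source of these counts was not tested.

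Reporter genes of CAR, PXR, AHR and NRF2 were read in the livers in which the transporters were measured, and rose in part of the groups. Cyp2b10 rose at the highest dose by 1.94 log2 in males and 2.48 in females at day 2, by 2.58 in males at day 5, and by 3.10 in males and 1.95 in females at day 28 (adjusted p 0.011, 0.000462, 0.000873, 8.63e-05 and 0.00423 by edgeR). In females at day 5 it was at 0.37 log2 and did not pass. Cyp3a11, the PXR reporter, rose at both feed times in both sexes by 0.67 to 0.98 log2, and it did not pass at day 2 (0.18 in males and 0.28 in females). Cyp1a2, the AHR reporter, rose by 0.71 in males at day 5 and by 0.66 in females at day 28. It did not pass at the highest dose in either sex at day 2, in females at day 5 or in males at day 28. Nqo1 rose by 0.85 in males at day 5, and at day 2 it was lower in both sexes (-0.78 in males and -0.54 in females, adjusted p 0.015 and 0.0454).

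Other genes of these pathways were read in 6 lists. At the highest dose of day 2, 15.1% of all genes passed in males and 30% in females, so counts near these shares say nothing particular of a list. Of 13 other uptake carriers, 10 were tested in liver, and at the highest dose 1 was higher in males and 2 in females at day 2. Slc22a5, the carnitine carrier, rose by 0.83 log2 in males (adjusted p 0.00598 by edgeR) and by 1.12 in females (adjusted p 7.42e-05), and Slco1a1, a neighbour of Slco1a4 in the gene cluster, rose by 1.23 in females (adjusted p 0.00314). Of 13 other efflux pumps, 12 were tested, and 1 was higher in males and 3 were higher and 2 lower in females. Abcb4, the phosphatidylcholine flippase of bile, rose by 0.45 in males (adjusted p 0.0252) and 0.63 in females (adjusted p 0.000756), and Abca1 by 0.41 in females (adjusted p 0.03). Slc51b, a subunit of the basolateral bile acid exporter, fell by 1.91 in females (adjusted p 0.000802), and Abcc10 fell by 0.37 (adjusted p 0.0348).

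At 2500 ppm none of the other uptake carriers, other efflux pumps or receptors and regulators passed by edgeR in either sex at day 5 or day 28. At day 2, of the 13 receptors and regulators, 2 were higher and 1 lower in males and 1 was higher and 2 lower in females. Arnt, a partner of AHR, rose by 0.27 and 0.23 log2, and Keap1 and Pdzk1, a scaffold of membrane transporters, fell by 0.25 and 0.51 in females. Of the 14 target enzymes of CAR and PXR, 4 were higher and 2 lower in males and 4 higher in females at day 2, 5 and 2 were higher in males and females at day 5, and 4 and 5 at day 28. Over all genes 15.1% and 30% passed in males and females at day 2, 0.405% and 0.0545% at day 5, and 0.0775% and 1.16% at day 28. Cyp2c29 rose by 0.63 to 1.29 log2 in both sexes on both feed days, and Cyp2c55 by 1.51 in males at day 5 and by 1.65 in males and 2.52 in females at day 28. Sult1d1 rose at day 2 by 0.91 in males and 1.46 in females. Cyp2c, Cyp3a and Cyp2b genes have close copies between which reads could be split.

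Of the 9 NRF2 target genes tested in liver, males at day 2 had 2 higher and 3 lower, and females 1 higher and 4 lower, beside the 15.1% and 30% of all genes that passed. Gsta1 fell by 1.97 log2 in males and 2.27 in females, Gsta2 by 1.10 and 1.27, and Hmox1 rose by 0.56 and 0.51. At 2500 ppm 2 were higher in males at day 5 and 1 in females at day 28, among them Srxn1, by 0.42 and 0.56. Of the 4 AHR target enzymes tested, 1 was higher in females at day 2 (Cyp1b1, 1.08 log2), in males at day 5 and in females at day 28. The median fold change of the CAR and PXR list at 2500 ppm lay between 0.25 and 0.39 log2 over day and sex, beside -0.01 to 0.00 over all genes tested. The median of the 8 transporters was 0.34 in males and 0.17 in females at day 5, and -0.01 and 0.03 at day 28.

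Likeness between genes was read as Pearson's r of log2 CPM over the 180 livers after the mean of each day and sex was taken off, over 12475 genes. It is a description with no test, since the points share doses, libraries and depth. Abcc2 had the closest neighbours of the 8, Atf7 (0.87), Masp1 (0.85) and F5 (0.84), followed by Abcb1a with Dclre1a (0.78), Cyp2a5 (0.76) and Ak4 (0.74). Slco1a4 went most with Mat1a (0.72), Slc16a7 (0.62) and Josd1 (0.62), and Slco1b2 with Klkb1 (0.70), Mfsd1 (0.69) and F13b (0.68). Abcc3 went with Cyp4f15 (0.69), Cyp3a25 (0.58) and Nrbp2 (0.58), Slco2b1 with Slc26a1 (0.68), Ttc38 (0.66) and Papss2 (0.66), and Abcg2 with Ces2e (0.63), Mgst1 (0.62) and Hsd17b12 (0.61). Abcc4 had the lowest values, with Tgfbr2 (0.47), Cadm1 (0.38) and Sult2a5 (0.37). Among the 8 genes the highest r was that of Slco2b1 with Abcb1a (0.61), then Slco1a4 with Abcc3 (0.56), and the lowest was that of Slco1a4 with Abcg2 (-0.45). The liver of replicate 64, which lay above its group for Slco1a4 and Abcc3 and below it for Abcg2, is among the 180. No r was taken without it, so its part in these values is not known.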

How the data were processed

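The authors deposited raw read counts per gene with no normalization, in 6 tables of 24421 genes, 1 for each tissue and day. The kit was TruSeq Stranded mRNA, per the labels' protocols. Reads went through Trimmomatic, Bowtie2, SAMtools and HTSeq with mm10, per the submitters' processing notes. The sources used here name no versions, annotation or strand setting, so reads of overlapping or antisense genes cannot be told apart. In the tables, 1 unnamed column was not used. Groups came from titles.

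The test was that of edgeR 4.0.16 (R 4.3.3), with filterByExpr, TMM scaling to CPM and robust quasi-likelihood fits with 1 mean for each of 10 groups of a table, Benjamini-Hochberg adjustment within a contrast over 12627 to 12904 genes in liver and 15240 to 15675 in lung, threshold 0.05. Trends used weights -2 to 2 over dose ranks. Liver and lung, or days 5 and 28, were joined to test differences between them; tests between tissues keep the 5 genes that pass the filter in both, a limit set after the values were seen. Standard errors are the log2 fold change over the root of the test statistic, and intervals use 1.96 of them. Alternatives were RLE factors, DESeq2 1.42.0, no filter, a fit of the compared groups alone, the title's number as a block, its place in a block of 8, dose weights and left-out libraries, of which those without replicates 12, 153, 155, 158, 159, 160 and, for some tests, 64, 67 and 176, and tissue tests with all 8 genes, were added after seeing the data. The test script was tested on simulated data.

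Nothing in the labels says that replicates came from separate animals, so p-values measure the spread between these samples. The 8 genes and all lists were chosen with earlier results of these data known. Genes named beside the 8 are up to 4 per list with the smallest adjusted p in liver, the reporters Cyp2b10, Cyp3a11, Cyp1a2 and Nqo1, clock genes, and the 3 nearest genes by correlation, with predicted models passed over; 1 result is not reported here. The 50-base words were compared between GENCODE M21 transcripts, and lengths are the union of exons.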

Additional observations from a re-analysis of the deposited data

Results flagged for a closer look

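Single libraries that lay far from the rest of their group were looked for in 390 groups of the 8 genes, and 32 were found, where chance alone gives about 1 in 20 groups. The liver of replicate 64 (female, 200 mg/kg-d, day 2) was the highest of its group for Slco1a4, at 810.1 CPM with the next at 267, and the lowest for Abcg2, at 28.2 CPM with the next at 47.2. Its lung was the highest for Abcc3 (134.8 CPM, next 97.4), Abcc4 (63.6, next 19.4), Abcg2 (56.1, next 41.9) and Slco2b1 (60.5, next 38.2). In the same liver Slco1b2 was at 690.2 CPM, below the 1089 to 1572 of the others, and Cyp3a11 at 7430.5, above the 2609.9 to 3934 of the others. What sets this replicate apart was not tested.

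In other livers of gavaged mice, Abcc2 was low in replicate 59 (female, 200 mg/kg-d, 286 CPM, next 385), Slco1b2 was high in replicate 49 (male, 200 mg/kg-d, 1721, next 1364) and Slco2b1 was low in replicate 42 (female, 100 mg/kg-d, 157.6, next 180.3). In livers of fed mice at day 5, Abcc4 was low in 1 female fed 1250 ppm (2.06 CPM) and 1 male fed 300 ppm (1.25 CPM) and high in 1 male fed 1250 ppm (3.82 CPM). Slco1a4 was low in 1 female fed 150 ppm (90.4 CPM) and high in 1 fed 2500 ppm (210.3 CPM), and Slco1b2 was high in 1 female fed 300 ppm (1616 CPM). At day 28, Abcc2 was low in replicate 170 (female, vehicle, 463), Abcc4 was high in 191 (female, 150 ppm, 11.3) and 183 (male, 150 ppm, 3.09), and Slco1a4 was high in 175 (female, vehicle, 231) and 197 (male, 300 ppm, 98.9). Slco1b2 was high in replicate 240 (female, 2500 ppm, 1759), and Slco2b1 was low in 218 (female, 1250 ppm, 145.6) and high in 232 (male, 2500 ppm, 197).

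In lung at day 2, Abcb1a was high in replicate 23 (male, 50 mg/kg-d, 90.2 CPM, next 73.3), which was also high for Abcg2 (55.9, next 45.5). Abcg2 was high in replicate 8 (male, vehicle, 59.5), and Abcc4 was high in 32 (female, 50 mg/kg-d, 21.4) and 52 (male, 200 mg/kg-d, 21.1) and low in 66 (male, 300 mg/kg-d, 9.27, next 17.6). At day 5, Abcc3 was high in 1 female fed 300 ppm (95.7 CPM) and Abcg2 in 1 male fed 150 ppm (59.9 CPM, next 34.5). At day 28, Slco2b1 was high in replicate 171 (female, vehicle, 47.1).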

How the results depend on the processing

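Over 345 recomputed values of single genes, 324 kept their direction and side of the threshold and 21 kept their direction but no longer passed. The counts of calls moved as follows, and where no other reason is given the cause was not tested. With no filter on low counts, which brings more genes into the adjustment, the calls at the highest dose fell from 2 to 1 in liver at day 2 and rose from 0 to 1 in lung at day 2, those at the 3 lower doses in lung rose from 1 to 3, and the trends in lung fell from 1 to 0. The added lung calls were of Slco1b2, which is near 0 in lung, in females against the vehicle group that holds replicate 12. In fits of the compared groups alone, which have fewer samples, the calls at the highest dose were 4 in liver at day 2, 1 in liver at day 5 (3 as reported) and 3 in lung at day 2, those at lower doses 1 in liver (3 as reported) and 0 in lung, the lung trends 2 and the vehicle sexes in lung 1 (0 as reported). With DESeq2 the calls were 1 in liver at day 28 (0 as reported), 5 at lower doses in liver (3 as reported) and 3 for lung trends (1 as reported). RLE factors gave 2 lung trends, and the place in the block of 8 numbers gave 3 lung trends and 1 call between vehicle sexes in lung. Leaving out single libraries gave 0 to 1 calls in lung at the highest dose of day 2 (1 without replicate 66), 0 to 1 at lower doses in lung (0 without replicate 64) and 0 to 2 lung trends (0 without 1 lung of a female fed 2500 ppm and 2 without replicate 160). Abcb1a in vehicle females at day 5 was lower in liver than in lung at -0.56 log2 with an adjusted p of 0.0755 in a fit of the compared groups alone.

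With the number in the title as a replicate block, the tissue differences called stayed at 0 of 30 and the tissue levels called went from 29 to 30. Counting the 3 genes that passed the filter only through liver, which was done after seeing the data, gives 2 tissue differences and 47 tissue levels, and these are no tests of genes near 0 in lung. Liver and lung deviations of the same number had r of 0.00864 to 0.375 over 49 pairs at day 2. The range was -0.07 to 0.251 over 42 pairs at day 5 and -0.0874 to 0.137 over 46 at day 28. Median r was 0.0768, 0.0418 and 0.0586 on these days, against -0.00115, 0.000342 and -0.00125 with other numbers. Among the lungs of the same day, sex and dose, 37, 17 and 26 of these livers correlated best with the lung of their own number. Each liver had only the few lungs of its group to match, so part of these matches would arise by chance. Whether a number marks the same animal in both tissues was not tested. The joint fits without the block treat liver and lung libraries of a number as independent. Depth limits Slco1a4, Slco1b2 and Abcc2 in lung, and Abcc4 and Abcb1a in liver have the widest errors.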

Other observations

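The numbers in the titles run in blocks of 8, and what their order means is not given in the sources used here. With a number's place in its block as a term, Abcb1a in liver had a slope of 0.19 log2 per place at day 5 (SE 0.02, adjusted p 1.6e-12 by edgeR) and 0.16 at day 28 (SE 0.02, adjusted p 5.05e-09), and -0.00 at day 2. Slco2b1 had slopes of 0.03 on both feed days (adjusted p 0.00398 and 0.00328), Slco1b2 passed in all 3 liver tables (-0.04, 0.02 and 0.02) and Abcc2 at days 2 and 28 (-0.04 and 0.04), while those of Slco1a4, Abcc3, Abcc4 and Abcg2 did not pass in any liver table. In lung at days 5 and 28 the slopes of Slco2b1 (0.04 and 0.04), Abcg2 (0.06 and 0.04) and Abcc3 (-0.03 and -0.03) passed, that of Abcc4 at day 5 alone (-0.03) and that of Abcb1a on neither day, where 15% and 16.3% of all genes did. At day 2 the lung slopes of these 5 genes lay between -0.00 and 0.03 and did not pass, where 4.77% of all genes did. Over all genes in liver, 31.7% at day 5 and 36.1% at day 28 had a slope that passed, among them the clock genes Arntl (-0.80 and -0.75), Dbp (0.41 and 0.34) and Nr1d1 (-0.11 and -0.17). At day 2 the slope passed for 7.52% of genes and was of the opposite sign for Arntl (0.32) and Dbp (-0.42), and of the same sign for Nr1d1 (-0.46). The dose and vehicle sex calls of the 8 genes in liver were all kept with this term in the model.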
